A study of Homo sapiens with 6 samples.

Results

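The matrix metalloproteinases (MMP), the membrane-anchored ADAM proteases, the secreted ADAMTS proteases and the tissue inhibitors of metalloproteinases (TIMP) were examined in A549 cells exposed to recombinant human surfactant protein D (rhSP-D). Members were all rows of the count table whose symbol is MMP, ADAM, ADAMTS or TIMP followed by a number alone. They were 67 of 57773 genes, made up of 22 MMP, 22 ADAM, 19 ADAMTS and 4 TIMP genes. Poly(A) RNA of the whole cells was sequenced in 3 samples given rhSP-D at 10 µg/ml and in 3 samples given an equal volume of its elution buffer as vehicle, all collected after 48 h. A549 is an established line from 1 human lung adenocarcinoma, grown here with serum, so every sample is of 1 cell line. SP-D is a carbohydrate-binding collectin of lung surfactant. Whether the replicates were separate cultures is not given in the sources used here, and the p-values therefore speak of sample-to-sample spread alone, part or all of which may be technical.

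MMPs and ADAMTS proteases are zinc enzymes that cut extracellular matrix, while most ADAMs cut the outer parts of membrane proteins and so release growth factors, adhesion molecules and receptors. The active enzymes are made as inactive precursors. TIMPs bind their active sites, and in lung the balance between the enzymes and TIMPs is known for its part in matrix turnover, repair and tumour invasion. The RNA levels given here say nothing of activation or of enzyme activity, which were not measured in these files.

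Total counts ranged from 18599955 to 26030880 in rhSP-D and from 11396193 to 19803697 in vehicle. Vehicle replicate 1, the shallowest library, stood apart on the first principal component (29.3% of variance) at -38.2, with the other 5 libraries at 3.59 to 12.3. The 6 epithelial markers checked (KRT8, KRT18, KRT19, EPCAM, CDH1 and CLDN4) were all above 1 CPM (read counts after TMM scaling, relative to library size) and summed to 9492 to 9671 CPM in rhSP-D and 9284 to 9401 CPM in vehicle. Of 6 alveolar type II markers 2 were above 1 CPM, and the 6 summed to 79.8 to 82.1 CPM in rhSP-D and 83.3 to 85.8 CPM in vehicle. Most of that sum was ABCA3, with means of 75.6 CPM in rhSP-D and 79.9 CPM in vehicle. The 7 fibroblast markers summed to 13.5 to 14.4 CPM in rhSP-D and 10.9 to 15.02 CPM in vehicle, with DCN at 0. The 7 leukocyte markers summed to 4.04 to 5.31 CPM in rhSP-D and 4.97 to 5.97 CPM in vehicle, with MS4A1 at 0. The 4 endothelial markers matched in the table summed to at most 0.151 CPM in rhSP-D and 0.0994 CPM in vehicle. Their part in the results below was not tested.

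Most members were scarce. The test covered 37 of the 67, which passed a filter of about 10 counts in 3 samples; 15 had some counts but too few to test, and 15 had 0 counts in all 6 samples. Those at 0 were the stromelysin MMP3, the macrophage elastase MMP12, MMP20, MMP27, ADAM2, ADAM7, ADAM18, ADAM29, ADAM30, ADAM33, ADAMTS5, ADAMTS19, ADAMTS20 and the pseudogene loci ADAM5 and ADAM6. A count of 0 allows a level of up to 0.117 CPM in the deepest library and 0.260 CPM in the shallowest (3 counts, counting error only). Among members with some counts, the collagenase MMP1 had 4, 3 and 4 counts in rhSP-D and 1, 8 and 3 counts in vehicle. The gelatinase MMP9, a protease of neutrophils and invasive tumours, had 4, 0 and 3 counts in rhSP-D and 1, 1 and 2 counts in vehicle. TIMP3, the matrix-bound inhibitor of ADAM17 and of several ADAMTS proteases, had 0, 0 and 5 counts in rhSP-D and 2, 5 and 2 counts in vehicle. At these counts no difference was detectable for MMP1, MMP9 or TIMP3. The other 12 scarce members (ADAM20, ADAM21, ADAMTS2, ADAMTS3, ADAMTS4, ADAMTS17, ADAMTS18, MMP8, MMP10, MMP11, MMP13 and MMP21) had at most 48 counts over all samples.

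Levels between genes were ranked per length, as RPKM, here CPM divided by the merged exon length in kb, for the 64 members found in GENCODE 29. TIMP1 stood highest at 141 RPKM in rhSP-D and 122 RPKM in vehicle. It was followed by ADAM9 at 31.03 RPKM in rhSP-D and 32.8 RPKM in vehicle, ADAMTS10 at 29.5 RPKM in rhSP-D and 27.5 RPKM in vehicle, MMP24 at 26.2 RPKM in rhSP-D and 27.4 RPKM in vehicle and TIMP2 at 26.05 RPKM in rhSP-D and 24.9 RPKM in vehicle. Each family was thus carried by few genes. On the CPM scale, averaged over both groups, MMP24 held 54.8% of the MMP sum, ADAM9 held 37.2% of the ADAM sum, ADAMTS10 held 62.7% of the ADAMTS sum and TIMP1 held 56.9% of the TIMP sum. The level of MMP24, a membrane-type MMP known mainly from the nervous system, is uncertain. Of its 4414 exonic nt, 961 overlap exons of the opposite strand, with MMP24OS (MMP24-AS1 in the count table) among the genes there. MMP24-AS1 was itself at 78.95 ± 1.66 CPM in rhSP-D and 78.3 ± 2.83 CPM in vehicle (SD, n = 3 each). Reads of this pair cannot be told apart there if strand was not counted.

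**Figure D1:**
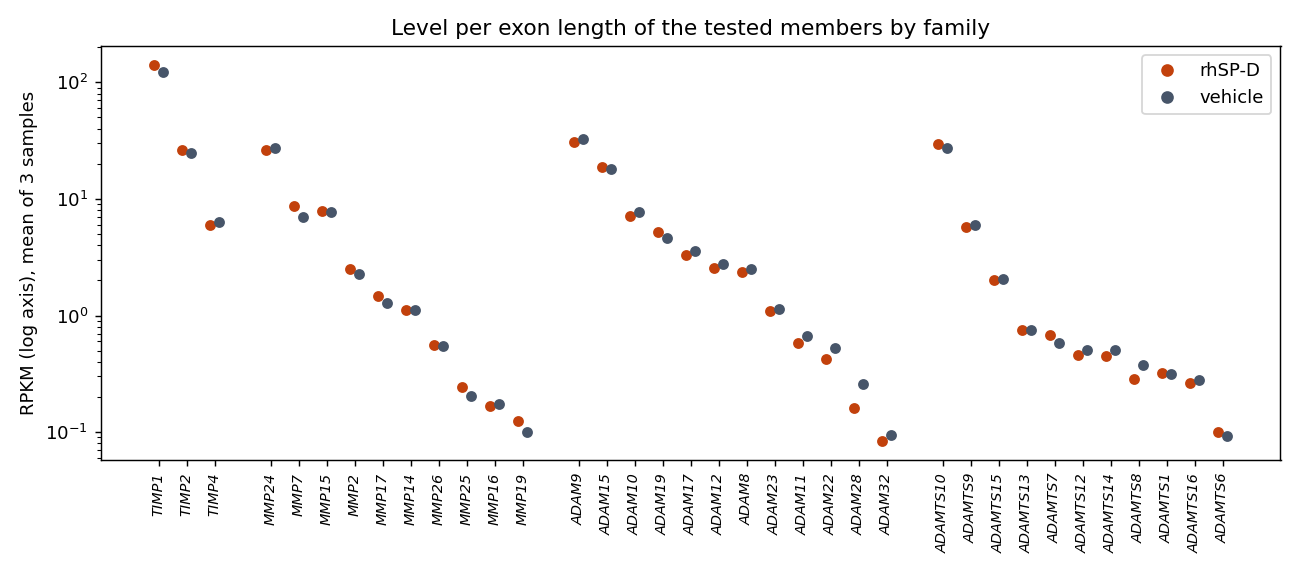
Mean level per exon length (RPKM, log axis, 3 samples per group) of the 36 tested members with a known length, by family, with rhSP-D to the left of vehicle for each gene. TIMP1 lies highest, and within each family a few genes lie well above the rest.

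Position set some neighbours apart. The MMP cluster on chromosome 11 (GRCh38, 102520508 to 102955734) held 8 members with coordinates: MMP7, MMP20, MMP27, MMP8, MMP10, MMP1, MMP3 and MMP13. Of their 2131 counts over all samples, 2095 belonged to MMP7, or 98.3%. In the ADAM cluster on chromosome 8, ADAM9 took 99.6% of the counts of 5 members, with ADAM5, ADAM18 and ADAM2 at 0 and ADAM32 with 0.839 ± 0.162 CPM in rhSP-D and 0.941 ± 0.388 CPM in vehicle (SD, n = 3 each).

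The main question was which metalloprotease and TIMP genes differed after exposure to the protein. The inhibitor TIMP1 and the matrilysin MMP7 rose, by 15.6% and 23.3%, and ADAM19 and ADAMTS10 rose by 12.2% and 7.23%. The sheddases ADAM10 and ADAM9 fell by 7.89% and 5.31%. These 6 of the 37 tested members (16.2%) changed at an adjusted p under 0.05 in edgeR's quasi-likelihood test, against a background of 15.9% of all 15848 genes tested, so the share of members changed was near that of all genes. By direction, 4 of 37 were higher, against 9.31% of all genes, and 2 were lower, against 6.63%. All genes changed were 1475 higher and 1051 lower (58.4% higher). With libraries scaled only to their totals, 856 genes were higher and 1961 lower (30.4% higher), with 2 members higher (TIMP1 and MMP7) and 5 lower (ADAM9, ADAM10, ADAM17, ADAM28 and MMP24). Without vehicle replicate 1, 6 of 37 members changed, against 2135 of all 16190 genes tested. Of these 6 members 5 were shared with the full set, with ADAM22 in place of ADAM9. DESeq2 called 3 members (TIMP1, ADAMTS10 and ADAM10) and 1534 of all 15848 genes, but gave 25 of the 37 members, MMP7 among them, no adjusted p. In RNA of whole cultures, fewer cells of a type and less RNA per cell cannot be told apart. The median log2 change of the 37 members was -0.03, against -0.006 over all genes tested. The groups did not overlap for 13 of the 37 members, 6 higher and 7 lower, against 31.5% of all genes. No member passed a test against a minimum fold of 1.2 (glmTreat of edgeR), with 1 member at an unadjusted p under 0.05; 6 of all genes passed (0.0379%).

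**Figure D2:**
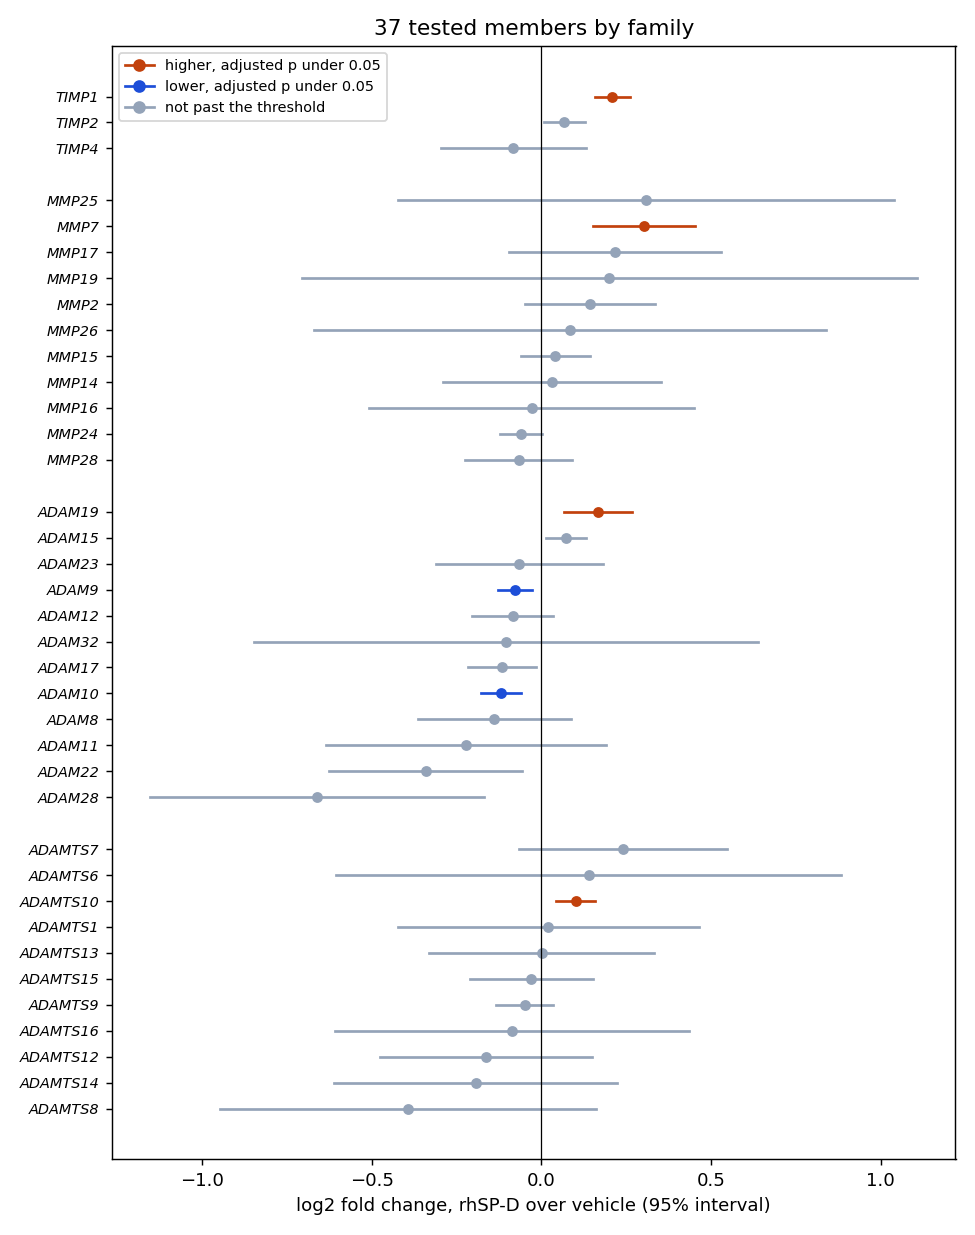
Log2 fold change of rhSP-D over vehicle with its 95% interval for the 37 tested members, by family and sorted within it. TIMP1, MMP7, ADAM19 and ADAMTS10 (orange) lie above 0 and ADAM9 and ADAM10 (blue) below it, and the intervals are wide for scarce members such as MMP19 and MMP25.

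GC content and transcript length differed between the genes that rose and those that fell. Over all genes the median transcript GC was 55.4% among 1445 higher genes and 42.7% among 1037 lower genes with an annotation, and the median exonic length was 3181 and 7837 nt. Among members, ADAM10 and ADAM9, which fell, had GC contents of 38.3% and 39.4%. TIMP1, ADAM19 and ADAMTS10, which rose, had 57.9%, 53.7% and 64.9%, and MMP7, which also rose, had 41.3%. The exonic lengths of ADAM10 and ADAM9 were 16168 and 6913 nt. Those of TIMP1, ADAM19, ADAMTS10 and MMP7 were 1541, 7704, 5703 and 2323 nt. Once trends on length and GC were removed from each library, 1562 of 15347 tested genes changed, 1047 higher and 515 lower. Of 36 tested members 4 changed, 3 higher and 1 lower. TIMP1, MMP7 and ADAM19 were again higher, ADAM10, ADAM9 and ADAMTS10 did not pass, and MMP24 was lower. The correction also removes a length or GC trend that runs with the groups, whether technical or a response of the cells. These cannot be told apart in this design, so neither fit is taken as the truer one.

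**Figure D3:**
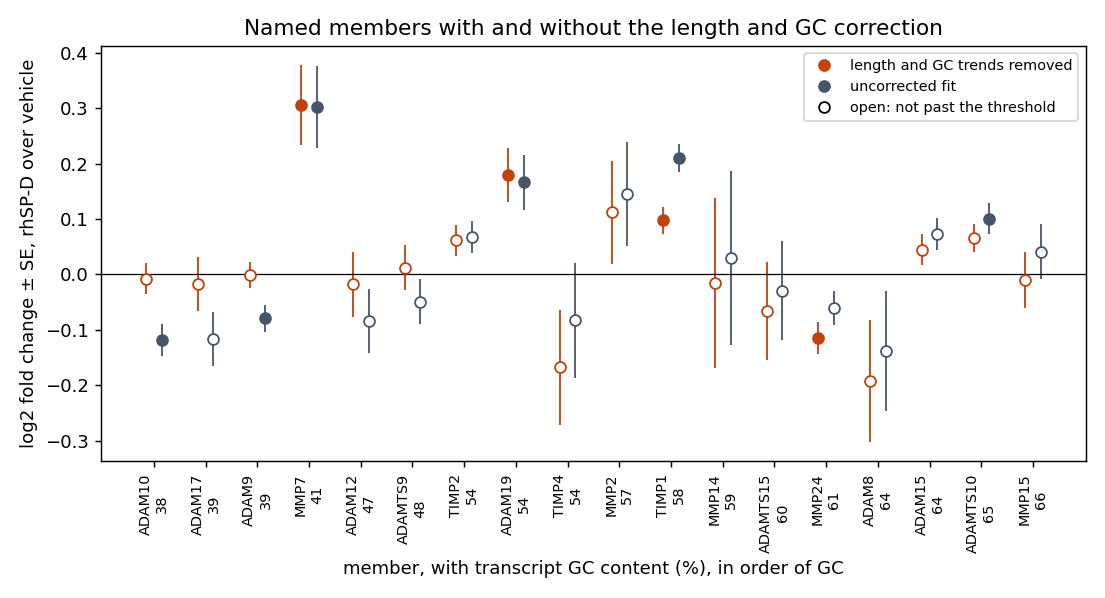
Log2 fold change ± SE of rhSP-D over vehicle for the named members with known GC content, in order of GC, with the length and GC trends removed (orange) and without that correction (grey). Filled points passed the threshold. ADAM10, ADAM17 and ADAM9, the 3 with the lowest GC, move to about 0, TIMP1 moves down to 0.10, and MMP7 and ADAM19 keep their values.

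Promoter windows are shown for the inhibitor and the protease with the largest rises among the changed members and for ADAM10, which fell most among them. The windows run from 250 bases before to 50 bases after the RefSeq start (GRCh38.p14), 5′ to 3′ on the gene's strand. Capitals mark the letters TGANTCA, which AP-1 factors are known to bind, and AGGAAG, a core of ETS sites, each searched on both strands; no base belongs to both motifs in these windows.
TIMP1 (chrX:47582186-47582485, plus strand): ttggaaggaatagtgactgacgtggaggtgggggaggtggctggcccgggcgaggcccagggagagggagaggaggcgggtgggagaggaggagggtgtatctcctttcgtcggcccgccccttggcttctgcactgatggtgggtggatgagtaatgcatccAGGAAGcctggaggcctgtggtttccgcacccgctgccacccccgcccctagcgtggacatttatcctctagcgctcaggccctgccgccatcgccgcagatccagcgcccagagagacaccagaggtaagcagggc
MMP7 (chr11:102530698-102530997, minus strand): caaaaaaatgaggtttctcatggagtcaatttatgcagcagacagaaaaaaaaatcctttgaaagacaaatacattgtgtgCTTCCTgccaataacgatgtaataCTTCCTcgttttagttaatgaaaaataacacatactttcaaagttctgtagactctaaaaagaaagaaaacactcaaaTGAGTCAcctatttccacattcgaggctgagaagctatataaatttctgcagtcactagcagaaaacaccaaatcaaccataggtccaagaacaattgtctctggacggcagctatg
ADAM10 (chr15:58749658-58749957, minus strand): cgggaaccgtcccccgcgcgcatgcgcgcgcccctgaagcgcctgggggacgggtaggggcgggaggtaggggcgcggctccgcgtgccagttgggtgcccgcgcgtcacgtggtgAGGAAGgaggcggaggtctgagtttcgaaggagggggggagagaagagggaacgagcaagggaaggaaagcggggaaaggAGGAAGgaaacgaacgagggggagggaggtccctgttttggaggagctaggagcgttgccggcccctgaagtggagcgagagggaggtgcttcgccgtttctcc
The MMP7 window held TGAGTCA at positions -67 to -61, counted from the start site, and CTTCCT, the ETS letters on the other strand, at -169 to -164 and -145 to -140. The TIMP1 window held AGGAAG at -87 to -82. It also held tgagtaa, which is close to TGANTCA but was not searched, so variant AP-1 letters were not counted in any window. The ADAM10 window held AGGAAG at -134 to -129 and at -54 to -49. RefSeq had 39 windows for 38 of the 67 members, and none for ADAM9 in the table used. TGANTCA was present in 4 of these 39 windows (ADAMTS12, MMP7, MMP10 and MMP20) and in 7.71% of 35116 windows of this length, and AGGAAG in 10 of 39 and in 33.6%. GC content was 65.0%, 35.7% and 68.0% in the windows of TIMP1, MMP7 and ADAM10. These letters describe the windows and mark no measured binding.

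Among the 3 inhibitors tested, TIMP1 rose, and TIMP2 and TIMP4 did not pass the test (33.3% changed, against 15.9% of all genes tested). TIMP1 (ENSG00000102265, GRCh38 chromosome X, 47582313 to 47586789), a secreted inhibitor of most MMPs that also signals through CD63, was at 216, 219.7 and 218 CPM in rhSP-D replicates 1, 2 and 3, against 188, 193 and 184 CPM in vehicle replicates 1, 2 and 3. The 3 rhSP-D samples all lay above the 3 vehicle samples. The means were 218 ± 1.98 CPM in rhSP-D and 188 ± 4.39 CPM in vehicle (SD, n = 3 each). Its log2 change was 0.21 ± 0.02 (SE, edgeR adjusted p = 4.95e-07), an increase of 15.6% with a 95% interval of 11.6% to 19.8%. With the length and GC trends removed the log2 change was 0.10, an increase of 7.03%, and it still passed.

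TIMP2, which inhibits MMPs and also helps MMP14 to activate MMP2, was at 145, 152 and 143 CPM in rhSP-D and 142, 138 and 139 CPM in vehicle. The rhSP-D samples were again above all vehicle samples, but the log2 change of 0.07 ± 0.03 (SE, edgeR adjusted p = 0.113) did not pass. TIMP4 was at 9.65, 9.82 and 9.94 CPM in rhSP-D and 12.4, 9.31 and 9.89 CPM in vehicle, with overlapping groups and a log2 change of -0.08 ± 0.10 (SE, edgeR adjusted p = 0.664). Its interval of -18.5% to 9.47% leaves room for a rise or a fall, and vehicle replicate 1 was its highest sample. The summed TIMP level was 371, 381 and 372 CPM in rhSP-D and 343, 341 and 334 CPM in vehicle, so the groups did not overlap, and the rhSP-D mean was 10.4% higher (log2 ratio 0.14, or 0.10 with library totals).

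Among the MMPs, MMP7 rose, and the other 10 tested MMP genes did not pass the test (9.09% changed, against 15.9% of all genes tested). MMP7 (ENSG00000137673, GRCh38 chromosome 11, 102520508 to 102530753), matrilysin, is a small secreted protease of glandular and airway epithelium that cuts matrix and the ectodomains of E-cadherin and other proteins. It was at 19.4, 19.7 and 21.4 CPM in rhSP-D replicates 1, 2 and 3, against 16.1, 15.9 and 16.9 CPM in vehicle replicates 1, 2 and 3. All 3 rhSP-D samples lay above all vehicle samples, and rhSP-D replicate 3 was the highest. The means were 20.2 ± 1.11 CPM in rhSP-D and 16.3 ± 0.487 CPM in vehicle (SD, n = 3 each). The log2 change was 0.30 ± 0.07 (SE, edgeR adjusted p = 0.00422), an increase of 23.3% with an interval of 11.1% to 36.8%. The call held under every alternative that gave an adjusted p, except the test against a fold of 1.2, with log2 changes from 0.26 to 0.33; DESeq2 gave MMP7 no adjusted p. The second matrilysin, MMP26, had a mean of 0.725 CPM over all samples and a log2 change of 0.08 ± 0.37 (SE, edgeR adjusted p = 0.918).

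**Figure D4:**
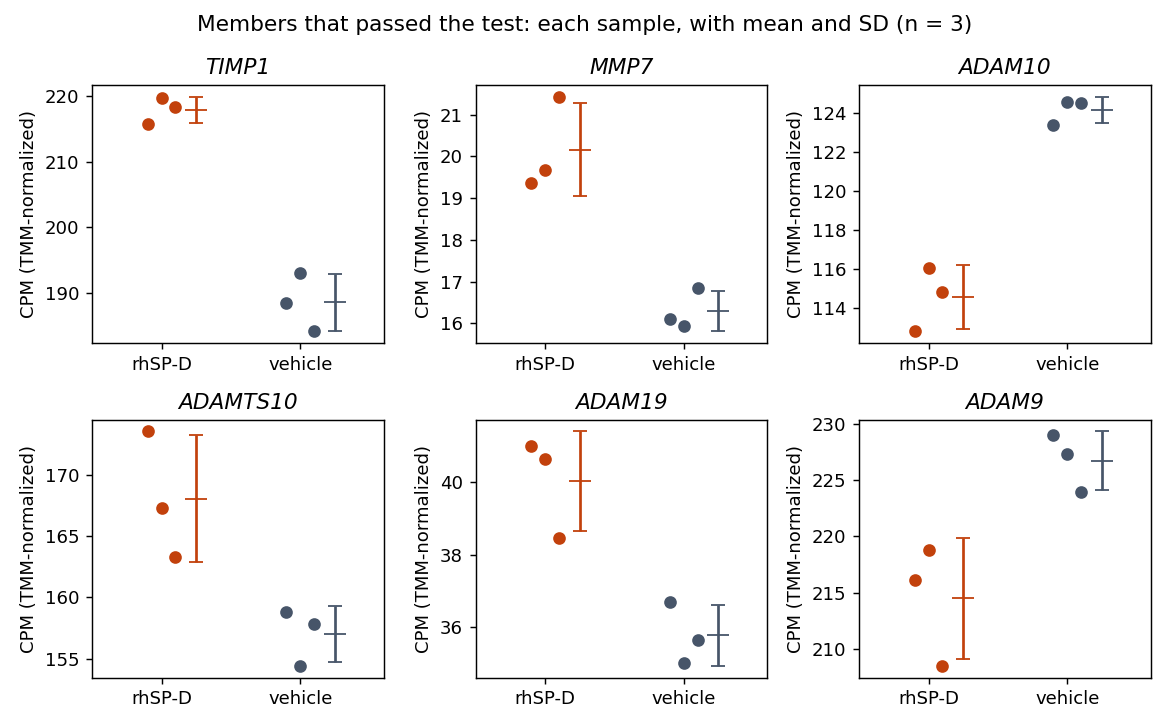
TMM-normalized CPM of the 6 members that changed, with rhSP-D left of vehicle; points are samples in order of replicate number and bars are mean ± SD (n = 3). The axes do not start at 0, so that the spread can be seen. In each panel the groups do not overlap: TIMP1, MMP7, ADAMTS10 and ADAM19 are higher, and ADAM10 and ADAM9 lower, in rhSP-D.

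None of the 6 membrane-type MMPs passed in edgeR or limma-voom, with 0 at an unadjusted p under 0.05 in edgeR and log2 changes from -0.06 to 0.31. MMP24, the most abundant, was at 118, 115 and 113 CPM in rhSP-D and 123, 119 and 121 CPM in vehicle. Its 3 rhSP-D samples lay below all vehicle samples, at a log2 change of -0.06 ± 0.03 (SE, edgeR adjusted p = 0.185). It passed only with library totals as the scaling, where its log2 change was -0.10, and with the length and GC trends removed, where it was -0.11. MMP24-AS1, with which it shares exonic sequence, was at a log2 change of 0.01 ± 0.04 (SE, edgeR adjusted p = 0.903). MMP15 was at 35.1, 35.3 and 34.4 CPM in rhSP-D and 33.9, 34.5 and 33.5 CPM in vehicle, a log2 change of 0.04 ± 0.05 (SE, edgeR adjusted p = 0.652) with an interval of -4.14% to 10.4%. MMP14, the chief activator of MMP2, was scarce, at 4.65, 5.02 and 5.37 CPM in rhSP-D and 6.23, 4.68 and 4.08 CPM in vehicle. Vehicle replicate 1 was the highest of its 6 samples, and the log2 change of 0.03 ± 0.16 (SE, edgeR adjusted p = 0.932) had an interval of -18.3% to 27.6%.

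Of the remaining named MMPs, MMP2, the gelatinase that cuts type IV collagen, was at 12.4, 11.8 and 13.2 CPM in rhSP-D and 11.2, 12.5 and 10.2 CPM in vehicle. The groups overlapped, and the log2 change was 0.14 ± 0.09 (SE, edgeR adjusted p = 0.338), with an interval of -3.21% to 26.2%. It was 0.23 without vehicle replicate 2 and 0.0666 without vehicle replicate 3. MMP28, an epithelial MMP known as epilysin, was at 16.2, 18.3 and 17.2 CPM in rhSP-D and 19.6, 17.5 and 17.3 CPM in vehicle, a log2 change of -0.07 ± 0.08 (SE, edgeR adjusted p = 0.627). The summed MMP level was 218, 216 and 216 CPM in rhSP-D and 222, 213 and 212 CPM in vehicle. These groups overlapped, and the log2 ratio of the means was 0.006; its sign turned with library totals (-0.0353), when thinned (-0.000277), without vehicle replicate 2 (-0.000905) and without vehicle replicate 3 (-0.00627).

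Among the ADAMs, 1 of 12 tested genes rose and 2 fell (25% changed, against 15.9% of all genes tested, of which 9.31% rose and 6.63% fell). A log2 change below 0 was seen for 10 of the 12, against 8180 of all 15848 genes. With the length and GC trends removed, 10 of 12 were again below 0 but the family median was -0.02, against -0.11, and ADAM19 alone passed. ADAM10 (ENSG00000137845, GRCh38 chromosome 15, 58588807 to 58749978), the constitutive sheddase of Notch receptors, E-cadherin and betacellulin, was at 113, 116 and 115 CPM in rhSP-D replicates 1, 2 and 3, against 123, 125 and 125 CPM in vehicle replicates 1, 2 and 3. Every rhSP-D sample lay below every vehicle sample. The means were 115 ± 1.64 CPM in rhSP-D and 124 ± 0.677 CPM in vehicle (SD, n = 3 each). The log2 change was -0.12 ± 0.03 (SE, edgeR adjusted p = 0.00476), so that it fell by 7.89%. It also passed when each library was left out in turn (-0.13 to -0.11). After the trend correction it was -0.00779 and did not pass.

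ADAM9 (ENSG00000168615, GRCh38 chromosome 8, 38996869 to 39105144), a sheddase that also binds integrins, was the most abundant ADAM, at 216, 219 and 208 CPM in rhSP-D replicates 1, 2 and 3, against 229, 227 and 224 CPM in vehicle replicates 1, 2 and 3. The groups did not overlap, and rhSP-D replicate 3 was the lowest. The means were 214 ± 5.35 CPM in rhSP-D and 227 ± 2.58 CPM in vehicle (SD, n = 3 each). The log2 change was -0.08 ± 0.02 (SE, edgeR adjusted p = 0.02602), so that it fell by 5.31%. The call ended without vehicle replicate 1, vehicle replicate 2, rhSP-D replicate 1 or rhSP-D replicate 3, with log2 changes of -0.09 to -0.06 over the 6 libraries left out in turn. It also ended when libraries were thinned (adjusted p = 0.0879), with no filter on low counts (0.0502), with DESeq2 (0.06298) and after the trend correction, at a log2 change of -0.00106. ADAM17, the sheddase of TNF, TGFA and amphiregulin, was at 35.4, 36.04 and 34.4 CPM in rhSP-D and 38.9, 38.6 and 37.5 CPM in vehicle. Its rhSP-D samples were all lower, with a log2 change of -0.12 ± 0.05 (SE, edgeR adjusted p = 0.105) that did not pass and was -0.02 after the correction. Of the 10750 exonic nt of ADAM17, 1465 overlap exons of the opposite strand, so its values are uncertain if strand was not counted.

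ADAM19 (ENSG00000135074, GRCh38 chromosome 5, 157395534 to 157575775), also called meltrin beta, which can process neuregulin, went the other way, at 40.97, 40.6 and 38.4 CPM in rhSP-D replicates 1, 2 and 3, against 36.7, 35.02 and 35.6 CPM in vehicle replicates 1, 2 and 3. All 3 rhSP-D samples lay above the vehicle samples. The means were 40.01 ± 1.37 CPM in rhSP-D and 35.8 ± 0.842 CPM in vehicle (SD, n = 3 each). The log2 change was 0.17 ± 0.05 (SE, edgeR adjusted p = 0.0188), an increase of 12.2%, and 0.18 after the trend correction, where it passed. The call ended without vehicle replicate 2 or 3, without rhSP-D replicate 1 or 2 (log2 changes of 0.15 to 0.19 over the 6 libraries left out). It also ended with library totals (0.13), with DESeq2 (0.16) and when libraries were thinned to one depth by a single random draw (0.09). ADAM15, an ADAM with an integrin-binding RGD sequence in its disintegrin domain, was at 126, 123 and 123 CPM in rhSP-D and 118, 118 and 118 CPM in vehicle. Its groups did not overlap, but the log2 change of 0.07 ± 0.03 (SE, edgeR adjusted p = 0.09100) did not pass.

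ADAM12, known as meltrin alpha, was at 25.6, 25.8 and 24.9 CPM in rhSP-D and 28.1, 26.5 and 26.6 CPM in vehicle, a log2 change of -0.08 ± 0.06 (SE, edgeR adjusted p = 0.3805). ADAM8, best known from leukocytes, was at 10.3, 11.5 and 11.7 CPM in rhSP-D and 9.43, 12.7 and 13.9 CPM in vehicle. Vehicle replicate 1 was the lowest and vehicle replicate 3 the highest of its samples, and the log2 change was -0.14 ± 0.11 (SE, edgeR adjusted p = 0.451). Of the ADAMs without a catalytic zinc site, 4 were tested (ADAM11, ADAM22, ADAM23 and ADAM32) and none passed in edgeR or limma-voom, with 1, ADAM22, at an unadjusted p under 0.05 in edgeR; DESeq2 gave them no adjusted p. ADAM22, a receptor of the secreted protein LGI1, had a log2 change of -0.34 ± 0.14 (SE, edgeR adjusted p = 0.0959) and passed without vehicle replicate 1. ADAM28, singled out after its values were seen for the largest log2 change in size of any member, was at 1.29, 1.64 and 1.61 CPM in rhSP-D and 2.77, 2.57 and 1.89 CPM in vehicle. Its log2 change of -0.66 ± 0.24 (SE, edgeR adjusted p = 0.0592) did not pass, and with 30 to 46 counts per sample its interval was -55.02% to -11.1%; it passed without vehicle replicate 3, with library totals and when thinned. The summed ADAM level was 586, 589 and 573 CPM in rhSP-D and 603, 604 and 602 CPM in vehicle, without overlap, at a log2 ratio of the means of -0.05 (-0.09 when scaled by library totals). ADAM9 and ADAM10, which moved to about 0 with the length and GC trends removed, held 37.2% and 20.1% of that sum.

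Among the ADAMTS proteases, 1 of 11 tested genes changed (9.09%, against 15.9% of all genes tested). ADAMTS10 (ENSG00000142303, GRCh38 chromosome 19, 8580242 to 8610735), which takes part in the assembly of fibrillin microfibrils, was the most abundant of them, at 174, 167 and 163 CPM in rhSP-D replicates 1, 2 and 3, against 159, 154 and 158 CPM in vehicle replicates 1, 2 and 3. The rhSP-D samples all lay above the vehicle samples, with rhSP-D replicate 1 the highest. The means were 168 ± 5.18 CPM in rhSP-D and 157 ± 2.302 CPM in vehicle (SD, n = 3 each). The log2 change was 0.10 ± 0.03 (SE, edgeR adjusted p = 0.01199), an increase of 7.23%. The call ended without vehicle replicate 2 or rhSP-D replicate 1 (0.07 to 0.12 over the 6 libraries left out), with library totals (0.06), when libraries were thinned to one depth (0.09) and after the trend correction (0.07).

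ADAMTS9, which cuts versican and aggrecan, was at 63.1, 60.7 and 58.7 CPM in rhSP-D and 64.9, 60.8 and 63.9 CPM in vehicle. The groups overlapped, and the log2 change was -0.05 ± 0.04 (SE, edgeR adjusted p = 0.482), with an interval of -8.82% to 2.46%. ADAMTS15, another versican-cutting protease, was at 11.5, 11.9 and 10.8 CPM in rhSP-D and 11.6, 11.9 and 11.4 CPM in vehicle, a log2 change of -0.03 ± 0.09 (SE, edgeR adjusted p = 0.877). The other 8 tested ADAMTS genes averaged under 5 CPM, and none passed in edgeR or limma-voom, with 0 at an unadjusted p under 0.05 in edgeR. They included ADAMTS7 at 0.24 ± 0.15 (SE), and ADAMTS13, the protease of von Willebrand factor, at 0.000618 ± 0.16 (SE). The summed ADAMTS level was 271, 263 and 257 CPM in rhSP-D and 259, 251 and 256 CPM in vehicle, with overlap between groups.

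Genes that act on or beside these families were compared from lists chosen with earlier results of these data known. Of 14 activators and partners of metalloproteases 2 rose and 12 did not pass, with a median log2 change of 0.02. The share changed was 14.3%, against 15.9% of all genes changed and 9.31% higher. BSG, the glycoprotein EMMPRIN that induces MMPs in neighbouring cells, was at 1448 ± 15.6 CPM in rhSP-D and 1295 ± 12.9 CPM in vehicle (SD, n = 3 each), an increase of 11.8% (edgeR adjusted p = 1.69e-08), and FURIN, which activates precursors of ADAMs and membrane-type MMPs, rose by 6.07%. After the trend correction BSG passed at a log2 change of 0.10 and FURIN did not, at 0.03, while TSPAN14, a tetraspanin partner of ADAM10, passed at 0.08500. Of 6 other inhibitors and clearance receptors 1 rose (16.7%, against 15.9% of all genes changed and 9.31% higher). It was TFPI2, a secreted serine protease inhibitor, which rose by 12.7% and passed also after the correction. Among 4 ADAMTS-like proteins ADAMTSL5 rose (25%), and among 5 other enzymes of the wider family BMP1, the procollagen C-proteinase, rose (20%). These lists are too short to tell such shares from the 15.9% of all genes. Neither gene passed after the correction, where PAPPA, a protease of IGF-binding proteins and 1 of those 5, passed at 0.12.

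Of 24 tested membrane proteins known to be shed by ADAM10 or ADAM17, 5 fell and 19 did not pass. The share changed was 20.8%, against 15.9% of all genes changed and 6.63% lower. The median log2 change was -0.11, against -0.006 over all genes tested. A change below 0 was seen for 20 of the 24, against 8180 of all 15848 genes. The 3 with the smallest p were the receptor MET, which fell by 9.49%, the receptor NOTCH2, which fell by 15.6%, and TGFA, a ligand of the EGF receptor, which fell by 22.6%. TGFA was at 8.48 ± 0.521 CPM in rhSP-D and 10.9 ± 0.352 CPM in vehicle (SD, n = 3 each). After the trend correction 3 were lower (TGFA, PVR and SDC1) and 1 higher (CD44), and MET and NOTCH2 did not pass. With that correction 20 of the 24 were again below 0, against 7738 of all 15347 genes. The median of the list was then -0.09, against -0.001 over all genes. Of all 15347 genes tested with that correction, 515 were lower and 1047 higher. Of 14 AP-1 and ETS factors 2 rose, JUNB and ETS2, and 2 fell, FOS and FOSB (28.6%, against 15.9% of all genes). FOS was at 349 ± 3.29 CPM in rhSP-D and 389 ± 5.39 CPM in vehicle (SD, n = 3 each) and fell by 10.3%, and JUNB at 348 ± 1.93 CPM in rhSP-D and 322 ± 5.02 CPM in vehicle (SD, n = 3 each), an increase of 7.76%. After the correction FOS, FOSB and JUN were lower and ETS2 higher, and JUNB did not pass.

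Of 19 tested matrix substrates 2 rose and 3 fell (26.3%, against 15.9% of all genes), with a median log2 change of -0.005. VCAN, the proteoglycan versican that ADAMTS proteases cut, was at 639 ± 5.91 CPM in rhSP-D and 698 ± 6.89 CPM in vehicle (SD, n = 3 each) and fell by 8.44%. COL4A2, a chain of the basement membrane collagen that gelatinases cut, rose by 9.59%, and FBN2, a fibrillin, fell by 19.9%. After the trend correction VCAN did not pass, at a log2 change of -0.03, while COL4A2 and FBN2 passed in the same directions.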

How the data were processed

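RNA was sequenced from 6 A549 samples, 3 per group, as paired-end libraries from poly(A) RNA, per the labels' protocols. The deposited values are whole-number counts of reads per gene; cutadapt, STAR 2.7.0a and featureCounts 2.0.0 on GRCh38 were used by the authors, per the submitters' processing notes. Which gene annotation was counted, whether strand was used and how reads with several matches were handled is not given in the sources used here.

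Counts were tested on the whole table with edgeR 4.0.16 (robust quasi-likelihood test, TMM factors, filterByExpr with a minimum count of 10) in R 4.3.3. P-values were adjusted by Benjamini-Hochberg over all 15848 genes tested, with a threshold of 0.05. CPM values are TMM-normalized. Summed family levels and RPKM have no test, and neither was formed with the length and GC trends removed. Exon lengths, GC content and coordinates came from GENCODE 29 (GRCh38), matched on Ensembl gene ID, which held 64 of the 67 members (all but ADAM6, MMP12 and MMP28). In it, 21 members overlap exons of the opposite strand and 3 of the same strand (ADAM15, MMP2 and TIMP2), whose values are uncertain to that extent. The biological coefficient of variation was 2.51%. Depth limits scarce members most, and floors cover counting error only. Fits were checked on simulated data that carried no length or GC trend and no difference in scaling between the groups. That check therefore does not bear on either.

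Given with their value in every sample were members past the test, those averaging at least 10 CPM, the 4 TIMPs, and MMP1, MMP2, MMP9, MMP14, ADAM10 and ADAM17. ADAM28, ADAM22, ADAM32, MMP26, ADAMTS7 and ADAMTS13 were added after their values were seen. In related lists at most 3 changed genes with the smallest p were described. The members and lists were chosen with earlier results of these data known. Alternatives were DESeq2 1.42.0, limma-voom (limma 3.58.1), other scalings and filters, a minimum fold of 1.2, a spline correction for length and GC, thinning to 11396193 counts, a replicate block, and leaving out each library. Thinning was a single random draw of counts, so its values also carry the error of that draw.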

Additional observations from a re-analysis of the deposited data

How the results depend on the processing

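All genes changed numbered 2526, against 1534 with DESeq2, 6 with a minimum fold of 1.2, 1562 with the length and GC correction and 1678 to 2182 without each library in turn. Members changed numbered 6, against 3 with DESeq2, 0 with the minimum fold and 3 to 6 without each library. With library totals as the scaling, log2 ratios of the family sums were -0.0905 for ADAM, 0.00421 for ADAMTS, -0.0353 for MMP and 0.10 for TIMP, against -0.05, 0.05, 0.006 and 0.14. The sign turned for ADAMTS15 when thinned (0.0501) and over the libraries left out (-0.0586 to 0.00258), for ADAMTS9 with the length and GC correction (0.0123), for MMP14 with library totals (-0.0105), that correction (-0.0149), thinning (-0.13) and libraries left out (-0.10 to 0.19), for MMP15 with library totals (-0.00017) and that correction (-0.00986), and for TIMP4 over libraries left out (-0.16 to 0.0282); none of these genes passed the test. For these changes the cause was not tested. Of 315 values of the named tested members under alternatives, 273 kept direction and side of the threshold, 27 lost and 3 gained the call, and 12 turned sign. Only the 6 members past the main test could lose a call, so all 27 losses were theirs. The call was lost in 9 of 17 alternatives for ADAM9, 8 of 17 for ADAM19, 6 of 17 for ADAMTS10 and 2 of 17 for ADAM10. TIMP1 lost it in 1 of 17 and MMP7 in 1 of 16.

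With a replicate block, 6 members and 2319 genes changed, and the 6 members were those changed without it. Deviations of libraries with the same replicate number correlated at -0.05, -0.02 and 0.003, so the numbers were not taken to pair the samples.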
